A study of Mus musculus with 8 samples.

Results

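Pyy, Npy1r and Slc6a2 are 3 of the 19938 genes that the arrays name through probe sets with a single gene symbol. They were chosen by their measured K14Snail minus wild type differences, which had opposite signs in Pyy and its receptor Npy1r, and Slc6a2 was listed with them. The genotype values below therefore describe the choice and carry no test. Each gene has 1 probe set (10391561 for Pyy, 10572070 for Npy1r and 10573956 for Slc6a2), and all 3 passed the filter on low values, a log2 level of at least 7.70 (the median over named genes and arrays) in at least 2 of 8 arrays.

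The keratinocytes came from back skin of male and female CD1 mice, 8 weeks old. Some were wild type and the others carried K14Snail, a transgene for Snail under the keratin 14 promoter, which is active in basal keratinocytes. Cells were enriched magnetically with antibodies to CD34, a bulge antigen, or Mts24, an upper follicle antigen, and the unbound cells form the negative fractions, which the study treats as controls. Either genotype gave a negative and a positive fraction for both antibodies, which makes 8 groups with 1 array each. The CD34 arrays held pools of 11 mice and the Mts24 arrays pools of 9 mice, so no single mouse was measured. All values are log2 expression levels.

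Peptide YY is a hormone of the neuropeptide Y family, best known from endocrine cells of the gut, where it is released after meals. It is cut from a precursor, trimmed and amidated at its end, and acts on the same G protein-coupled receptors as neuropeptide Y. The Y1 receptor encoded by Npy1r couples to inhibitory G proteins that lower cyclic AMP, and binds the full-length forms of both peptides. Neuropeptide Y is released together with noradrenaline from sympathetic nerves, which in skin reach vessels and the muscles of hair follicles. Slc6a2 encodes the transporter that takes noradrenaline back up into those nerve endings.

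The labels of the sorted cells were checked first. All 8 keratinocyte markers (among them Krt5, Krt14 and Trp63) were over 7.70 in every array, and their summed level lay between 16.22 and 16.55. Snai1 was at 10.84 to 11.04 in K14Snail and 7.86 to 8.16 in wild type arrays. Cd34 was at 13.29 and 13.57 in the CD34 positive and 6.12 and 6.27 in the CD34 negative arrays. Plet1, whose product carries the Mts24 antigen, was at 12.64 and 12.88 in the Mts24 positive and 9.16 and 9.91 in the Mts24 negative arrays. Each sort also held RNA of the other marker. Cd34 was at 11.56 and 12.12 in the Mts24 positive and 10.03 and 10.51 in the Mts24 negative arrays. Plet1 was at 11.74 and 11.82 in the CD34 positive and 11.15 and 11.22 in the CD34 negative arrays. Comparisons between the sorts are limited by this. Of the markers of sympathetic and other neurons, 9 of 10 had a probe set and all 9, with Th and Dbh, were under 7.70 in every array. Their summed level of 9.46 to 9.67 hardly varied. The same held for 9 of 10 Merkel cell markers (Krt8 was the exception) and 7 of 8 enteroendocrine markers (Cck was the exception).

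Snail is a repressor that binds E-box letters in promoters, and Pyy and Npy1r differed in opposite directions under the Snail transgene, so the bases before their start sites are shown. They are RefSeq sequence of mouse build GRCm38.p6, 250 bases up to the annotated start, from chr11:102107833-102108082 on the minus strand for Pyy and chr8:66697172-66697421 on the plus strand for Npy1r. Capitals mark matches to the general E-box CANNTG.
Pyy: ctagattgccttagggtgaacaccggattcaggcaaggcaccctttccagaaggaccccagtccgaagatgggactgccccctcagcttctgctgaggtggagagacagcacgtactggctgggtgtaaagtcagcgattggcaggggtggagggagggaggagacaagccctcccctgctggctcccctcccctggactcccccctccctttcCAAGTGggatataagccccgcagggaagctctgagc
Npy1r: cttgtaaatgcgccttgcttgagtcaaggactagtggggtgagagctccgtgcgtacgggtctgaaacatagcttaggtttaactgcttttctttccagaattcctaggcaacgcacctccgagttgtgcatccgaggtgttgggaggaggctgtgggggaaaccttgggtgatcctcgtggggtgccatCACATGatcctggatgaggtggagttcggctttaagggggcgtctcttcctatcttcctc
The Snail type of E-box, CAGGTG, was searched on both strands (CACCTG on the other) and was in neither window. Of all 32851 promoter windows of this length 17.2% hold it. Each window held 1 match to CANNTG, a motif that includes CAGGTG and reads the same on both strands. It was CAAGTG, starting 36 bases before the start, in Pyy and CACATG, starting 60 bases before it, in Npy1r. CANNTG was in 66.2% of all windows, so these matches are common. A further annotated start of Pyy lies downstream, and its window holds the same CAAGTG.

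Pyy, the ligand, was the gene with the widest genotype gap in any fraction among the 3. In wild type its level was 8.79 (negative) and 7.84 (positive) in the CD34 sort, and 8.60 (negative) and 8.66 (positive) in the Mts24 sort. In K14Snail it was 10.005 and 7.79 in the CD34 sort, and 11.71 and 10.03 in the Mts24 sort, again negative before positive. The wild type levels ran from 7.84 to 8.79, lowest in CD34 positive cells. The K14Snail arrays spanned a wider range, with 3 of them above every wild type array and the CD34 positive one below all of them. All 8 Pyy levels were over 7.70.

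K14Snail minus wild type, Pyy differed by 3.10 in Mts24 negative (8.60-fold), 1.37 in Mts24 positive (2.58-fold) and 1.22 in CD34 negative cells (2.33-fold). In CD34 positive cells the difference was -0.05. The mean of the 4 pairs was 1.41 ± 1.30 (SD, n = 4 pairs of arrays), so the size varied almost as much as its mean. The negative and positive fractions of a sort are taken to share mice, so the 4 pairs, here and below, are not independent. Of all 10720 tested genes 42.9% were higher in at least 3 of 4 pairs. A difference of 1 or more upwards was found for 0.466% of them in Mts24 negative, 1.33% in Mts24 positive and 0.457% in CD34 negative cells. The pattern chose the gene, so nothing is read from these shares, and whether the difference varies between fractions was not tested. In bulk samples, more cells that express a gene and more RNA per cell cannot be told apart.

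**Figure D1:**
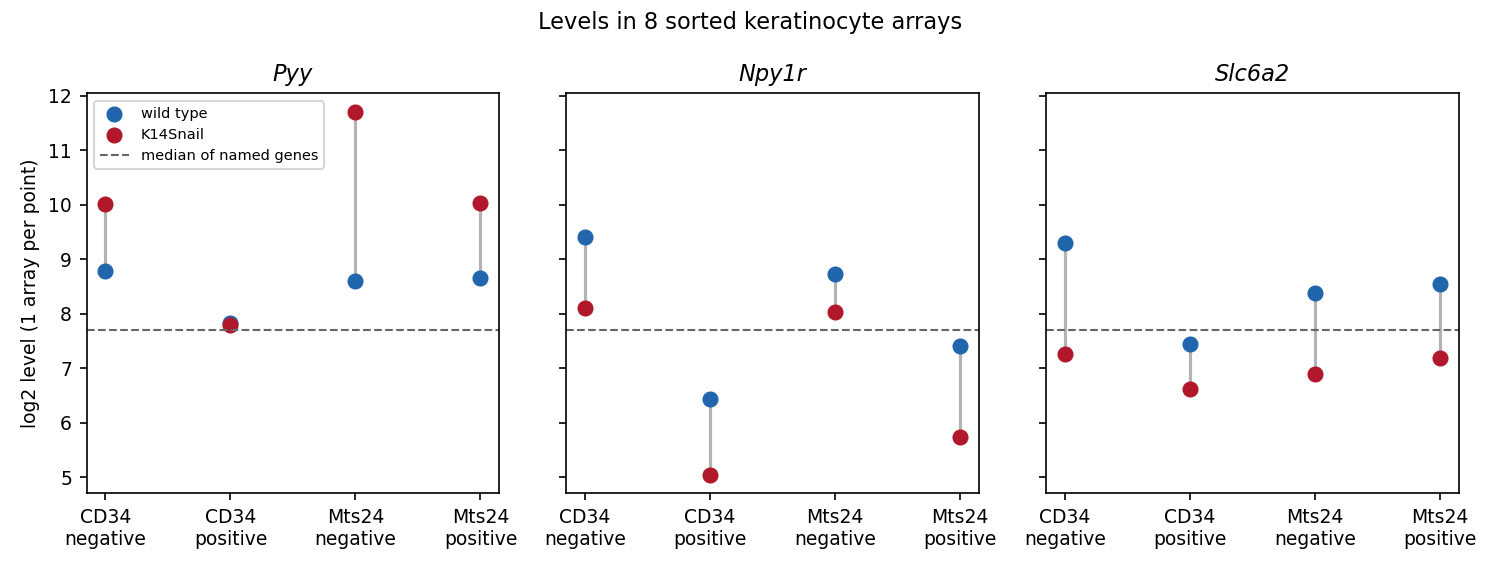
Log2 level of Pyy, Npy1r and Slc6a2 in the 8 arrays, with sorted fraction on the x axis, 1 point per array and the genotypes joined by a grey line; the dashed line is the median of named genes, 7.70. Pyy peaks at 11.71 in K14Snail Mts24 negative cells and falls together at 7.84 and 7.79 in CD34 positive cells, while Npy1r and Slc6a2 are lower in K14Snail in each fraction.

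Melanocyte markers varied between the same arrays. The summed level of the list's 6 genes was 10.24 to 11.76, highest in K14Snail CD34 positive cells (11.76), with 11.61 in wild type CD34 positive and 11.60 in K14Snail Mts24 negative cells, the array with the highest Pyy. The list's genes did not vary alike. Looked at singly, after their values had been seen, 5 of the 6 (Dct, Tyrp1, Pmel, Mlana and Tyr) were highest in K14Snail Mts24 negative cells, at 9.95, 9.82, 8.96, 7.86 and 6.52. Tyr was under 7.70 in all arrays. Mitf, the sixth, was higher in positive cells, by 2.75 in the CD34 and 1.07 in the Mts24 sort. The part of pigment cells in the Pyy values was not tested.

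Npy1r, the Y1 receptor, was lower in K14Snail in 4 of 4 pairs. Wild type CD34 cells had 9.41 (negative) and 6.44 (positive), and wild type Mts24 cells 8.73 (negative) and 7.41 (positive). K14Snail CD34 cells had 8.11 (negative) and 5.04 (positive), and K14Snail Mts24 cells 8.04 (negative) and 5.74 (positive). Within a fraction the K14Snail array was always the lower one, but across fractions the genotypes overlapped, because the fractions differed more than the genotypes. K14Snail minus wild type, the differences were -1.31 (negative) and -1.40 (positive) for CD34 and -0.69 (negative) and -1.66 (positive) for Mts24, a mean of -1.26 ± 0.41 (SD, n = 4 pairs). Of all tested genes 12.6% were lower in 4 of 4 pairs. The rule used this contrast, so nothing is read from that share. Npy1r was over 7.70 in the 4 negative arrays and under it in the 4 positive arrays, so differences that involve positive cells depend on the array background, which was not measured here.

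Slc6a2, the noradrenaline transporter, was likewise lower in K14Snail in 4 of 4 pairs. Among wild type arrays the CD34 sort gave 9.30 (negative) and 7.44 (positive), and the Mts24 sort 8.37 (negative) and 8.55 (positive). Among K14Snail arrays the CD34 sort gave 7.27 (negative) and 6.63 (positive), and the Mts24 sort 6.89 (negative) and 7.19 (positive). Every K14Snail level was under every wild type level, and the nearest were 7.27 and 7.44. How many of all tested genes separate the genotypes in this way was not counted. The genes were chosen by this contrast, so nothing is read from the separation. The differences, in the same order as for Npy1r, were -2.03, -0.82, -1.48 and -1.36, a mean of -1.42 ± 0.50 (SD, n = 4 pairs). Only 3 wild type arrays passed 7.70, so Slc6a2 passed the filter only through the wild type, and the size of each difference is uncertain.

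**Figure D2:**
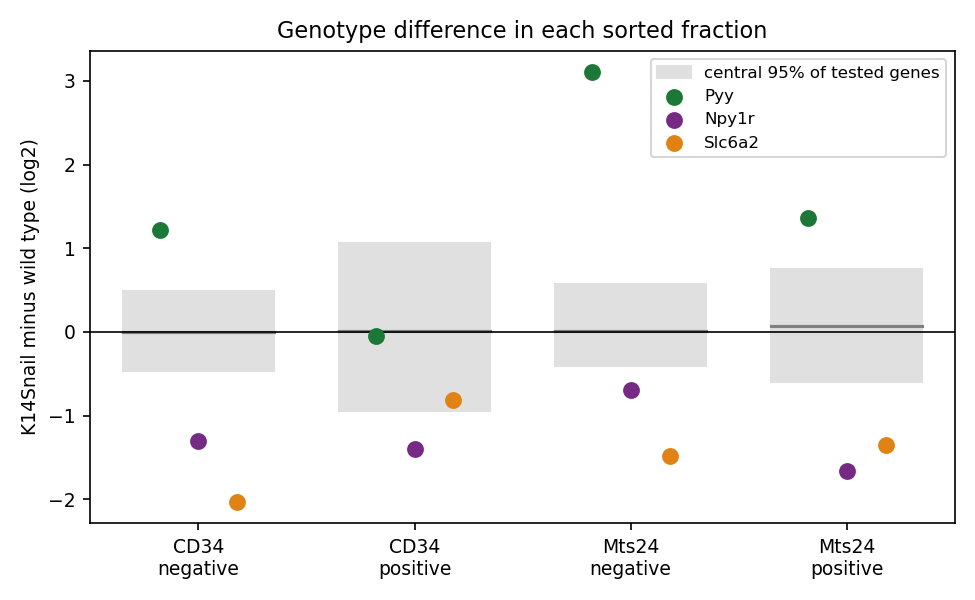
K14Snail minus wild type log2 difference of Pyy, Npy1r and Slc6a2 (points, 1 pair of arrays each) in each fraction; grey boxes hold the central 95% of the 10720 tested genes and the line in each box is their median. Pyy lies above the box in 3 fractions and inside it in CD34 positive cells (-0.05), Npy1r lies below it in all 4, and Slc6a2 below it in 3, with -0.82 inside the wide CD34 positive box. The genes were chosen by these differences, so nothing is read from their place outside the boxes.

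The genes beside the 3 on the chromosomes had differences of less than 0.4 in size. They were looked up after the member values had been seen and have no test. Ppy, which encodes pancreatic polypeptide and is the next protein-coding gene on one side of Pyy on chromosome 11, stayed between 7.05 and 7.45 in all arrays, with a genotype difference of -0.14 ± 0.17 (SD, n = 4 pairs). Npy5r, the gene of the Y5 receptor and the neighbour of Npy1r on chromosome 8, stayed between 5.96 and 6.19. Lpcat2 and Capns2, on one side of Slc6a2, differed by -0.39 ± 0.25 and -0.14 ± 0.21 (SD, n = 4 pairs).

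Positive and negative fractions were compared with limma over both genotypes, differences that the choice of genes did not use. Each comparison rests on 2 pairs of arrays, 1 per genotype. Its error comes from how the K14Snail minus wild type difference varied over the 4 fractions, and from a spread shared over genes. The choice used those genotype differences, so the p-values are not independent of it. They measure only the spread between the 8 arrays, not that between mice. Npy1r fell in both positive fractions. CD34 positive minus negative it was at -3.02 ± 0.23 (standard error) on the log2 scale (limma adjusted p = 0.000784), with -2.97 in wild type and -3.06 in K14Snail, an 8.09-fold difference that was the ninth lowest of 10720 genes. Mts24 positive minus negative it was at -1.81 ± 0.23 (limma adjusted p = 0.00601), with -1.32 in wild type and -2.29 in K14Snail. These comparisons called 23.7% and 22.8% of all tested genes in either direction, and 11.6% and 11.7% as lower, so passing alone sets no gene apart. Npy1r passed the filter through the negative arrays alone. It also passed with no filter, and under all 17 alternatives its adjusted p was at most 0.0115 for CD34 and 0.0404 for Mts24.

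Averaged over genotypes, Npy1r stood at 8.76 in CD34 negative, 8.38 in Mts24 negative, 6.57 in Mts24 positive and 5.74 in CD34 positive cells. The highest neighbours in this order did not differ beyond their error (CD34 negative minus Mts24 negative, 0.38, 95% interval -0.14 to 0.89, limma adjusted p = 0.353), in a comparison that called 0.0653% of all tested genes. Nor did the lowest neighbours pass (CD34 positive minus Mts24 positive, -0.83 ± 0.21, limma adjusted p = 0.0538), though they did without either Mts24 negative array (adjusted p = 0.0265 each). The CD34 and Mts24 differences differed from each other by -1.21 (95% interval -2.0 to -0.42), which did not pass over all genes (limma adjusted p = 0.117).

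**Figure D3:**
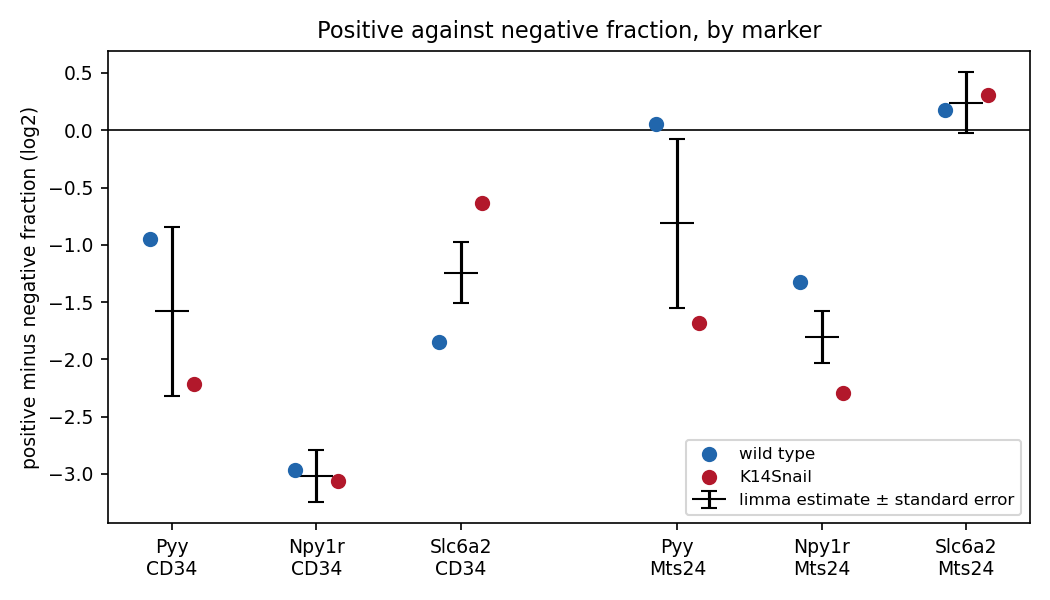
Positive minus negative fraction on the log2 scale for Pyy, Npy1r and Slc6a2 in the CD34 and Mts24 sorts; points are the 2 genotypes, and the black bars are limma's estimate with its standard error. Npy1r is near -3.0 in both genotypes of the CD34 sort, Slc6a2 is below 0 in the CD34 sort and just above 0 in the Mts24 sort, and the Pyy points of the genotypes lie far apart.

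Markers of 3 cell types were higher in every negative than in every positive array, as Npy1r was. Sums of fibroblast and enteroendocrine markers separated the arrays the other way. They were at 9.64 to 9.82 in negative and 9.84 to 10.37 in positive arrays for fibroblasts, and at 9.54 to 9.90 and 9.92 to 11.45 for enteroendocrine cells. All enteroendocrine markers but Cck, and 3 of 6 fibroblast markers (Pdgfra, Dcn and Lum), were under 7.70 in every array. CD34 positive minus negative, the fibroblast markers Col1a2 and Col3a1 were at 0.95 and -0.12. The summed level of the 7 T cell markers with a probe set (of 8) was 12.66 to 13.45 in negative and 10.39 to 10.98 in positive arrays. That of the 4 Schwann cell markers with a probe set (of 6) was 12.00 to 12.16 against 11.17 to 11.86. That of the 8 keratinocyte markers was 16.47 to 16.55 against 16.22 to 16.39. Within the Schwann cell and keratinocyte lists the genes did not vary alike. CD34 positive minus negative, Mbp was at -1.15 and Erbb3 at -0.88 but Sox10 at -0.02, and S100b was under 7.70 in all arrays. Among the keratinocyte markers Krt1 was at -1.85 and Krt15 at 0.57. The 8 myeloid and Langerhans cell markers overlapped, at 12.85 to 13.55 in negative arrays, 11.40 and 11.49 in the wild type positive arrays, and 13.02 and 13.25 in the K14Snail positive arrays. By genotype the T cell, Schwann cell and keratinocyte sums were each lower in K14Snail in 3 of 4 pairs, as Npy1r was in 4 of 4. The T cell sum was 13.04 in wild type and 12.66 in K14Snail for CD34 negative, 13.45 and 13.00 for Mts24 negative, and 10.60 and 10.39 for Mts24 positive cells, but 10.67 and 10.98 for CD34 positive cells. The Schwann cell sum was higher in K14Snail only in CD34 negative cells (12.00 and 12.16), and the keratinocyte sum only in Mts24 negative cells (16.47 and 16.52). The part of these cell types in the Npy1r differences was not tested.

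Slc6a2 fell in CD34 positive against CD34 negative cells by 1.25 ± 0.27 (2.37-fold, limma adjusted p = 0.0224), with -1.85 in wild type and -0.64 in K14Snail. Of the CD34 arrays only the wild type negative one was over 7.70, and Slc6a2 passed the filter only through wild type arrays. The size of this difference is therefore uncertain. The call was lost without the wild type CD34 negative array (-0.89, adjusted p = 0.102) and without the wild type CD34 positive array (-0.89, adjusted p = 0.0593). In the Mts24 sort the difference was 0.24 (95% interval -0.42 to 0.90, limma adjusted p = 0.562), with 0.18 in wild type and 0.30 in K14Snail. The difference between the sorts was -1.49 ± 0.38, which did not pass over all genes (adjusted p = 0.107), but did without the K14Snail CD34 positive array (adjusted p = 0.0293). Averaged over genotypes the order was CD34 negative (8.28), Mts24 positive (7.87), Mts24 negative (7.63) and CD34 positive (7.04). The SD over the 2 genotypes was 0.58 to 1.44, and the steps between neighbours in this order were not tested other than through the comparisons given. CD34 positive cells had 0.84 less than Mts24 positive cells (adjusted p = 0.0815), which passed without the K14Snail CD34 positive array (adjusted p = 0.0345).

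Pyy did not pass between fractions. CD34 positive minus negative it was at -1.58 (95% interval -3.40 to 0.24, limma adjusted p = 0.185), with -0.95 in wild type and -2.21 in K14Snail. The call was gained without the wild type CD34 positive array (adjusted p = 0.0353) and without either Mts24 negative array (adjusted p = 0.0489 each). Mts24 positive minus negative it was at -0.81 (95% interval -2.63 to 1.01, adjusted p = 0.475), with 0.06 in wild type and -1.68 in K14Snail. The averages over genotypes were 10.15 in Mts24 negative, 9.40 in CD34 negative, 9.34 in Mts24 positive and 7.81 in CD34 positive cells, with SDs of up to 2.20 over the 2 genotypes.

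The rest of the neuropeptide Y family was dim. Of the 8 genes on the list 8 had a probe set, and besides Pyy and Npy1r only Npy was tested. Npy, the sympathetic co-transmitter, lay between 7.33 and 7.96 in 7 arrays and at 8.91 in K14Snail CD34 positive cells. Its genotype differences were 0.23, 1.54, 0.23 and 0.19 in the order above, a mean of 0.55 (limma adjusted p = 0.191), and neither its CD34 (0.69, adjusted p = 0.246) nor its Mts24 difference (0.19, adjusted p = 0.760) passed. The pancreatic polypeptide gene Ppy and the receptor genes Npy2r, Npy4r, Npy5r and Npy6r were under 7.70 in all arrays, with highest levels of 7.45, 4.89, 5.52, 6.19 and 4.15.

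Enzymes that make and cut such peptides were measured too. For K14Snail against wild type limma called 2.05% of all tested genes (220), but 0.382% (41) without a pool block. Cpe, which trims basic residues off prohormone fragments, rose in K14Snail by 0.63 ± 0.08 (adjusted p = 0.0373), and Pam, the enzyme that amidates peptide ends, rose by 0.38 ± 0.05 (adjusted p = 0.0372), each higher in 4 of 4 pairs. Of the 5 tested genes for prohormone processing and secretory granules these 2 rose and 0 fell. The other 3, among them the convertase Furin (0.23, adjusted p = 0.135), did not pass, and the list median was 0.23 against 0.02 over all tested genes. Dpp4, the peptidase that removes the first residues of peptide YY and neuropeptide Y, fell by 0.68 ± 0.10 (limma adjusted p = 0.0418, lower in 4 of 4 pairs), the only one of 4 tested peptidases to pass for genotype. By comparison, 18.9% of all tested genes were higher in 4 of 4 pairs and 12.6% were lower in 4 of 4. The summed myeloid and Langerhans cell markers also differed by genotype in the positive fractions, at 11.40 in wild type and 13.02 in K14Snail for CD34 and 11.49 and 13.25 for Mts24, but at 13.50 and 12.85 for CD34 negative and 13.55 and 13.51 for Mts24 negative cells. Their part in the Cpe, Pam, Dpp4 and Npy values was not tested. With no pool block the adjusted p was 0.0667 for Cpe, 0.0655 for Pam and 0.0686 for Dpp4. Without any 1 of the 8 arrays none of the 3 passed, at up to 0.130 for Cpe, 0.145 for Pam and 0.148 for Dpp4.

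Between fractions all 4 tested peptidases were called. In CD34 positive cells 3 of 4 fell and 1 rose, where 11.6% of all tested genes fell and 23.7% were called, and the counts were the same in Mts24 positive cells (11.7% and 22.8%), with medians of -0.81 and -1.02 against -0.03 and 0.02 over all tested genes. Mme, the membrane peptidase neprilysin, rose by 3.90 ± 0.26 in CD34 positive cells (limma adjusted p = 0.000581) and was called at 1.01 ± 0.26 in Mts24 positive cells (adjusted p = 0.0441). Mme was also higher in CD34 positive than in Mts24 positive cells (2.18 ± 0.24, adjusted p = 0.00585). It was over 7.70 only in the 2 CD34 positive arrays and passed the filter through them, the group where it was high. The sizes of its differences therefore depend on the array background in the other arrays. In the other settings that kept the 8 arrays, that with no filter among them, limma's adjusted p was at most 0.00386 for CD34 positive minus negative. It was at most 0.00808 for CD34 positive minus Mts24 positive. All 4 Mts24 arrays were under 7.70, and the Mts24 call was lost with the pool as a fixed block (adjusted p = 0.0758), after quantile normalization and with a robust variance prior, so nothing is read from it. The aminopeptidase P genes fell in both sorts: Xpnpep2, the membrane-bound form, was at -2.16 ± 0.26 for CD34 (adjusted p = 0.00348) and -1.21 ± 0.26 for Mts24 (adjusted p = 0.0262). Xpnpep1, the cytosolic form, fell by 0.94 ± 0.16 (adjusted p = 0.0111) and 1.47 ± 0.16 (adjusted p = 0.00441). Dpp4 fell by 0.69 ± 0.17 (adjusted p = 0.0360) and 0.82 ± 0.17 (adjusted p = 0.0234). Of the 5 prohormone processing genes 0 passed in either sort with limma.

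Downstream of the receptor, 8 of 18 genes for inhibitory G proteins, adenylyl cyclases and their potassium channels were tested. For genotype 0 passed (median -0.04), where 2.05% of all tested genes did. In CD34 positive cells 1 rose and 2 fell, and the counts were the same in Mts24 positive cells. These comparisons called 23.7% and 22.8% of all tested genes, so nothing is read from the counts. Adcy1, an adenylyl cyclase, rose by 3.32 ± 0.17 (limma adjusted p = 0.000308), while the inhibitory subunit Gnai1 fell by 0.67 ± 0.11 (adjusted p = 0.0108) and the cyclase Adcy3 by 0.72 ± 0.13 (adjusted p = 0.0136). In Mts24 positive cells Adcy1 rose by 1.01 ± 0.17 (adjusted p = 0.0136), and Gnai3 (-0.48 ± 0.09, adjusted p = 0.0160) and Adcy6 (-0.37 ± 0.09, adjusted p = 0.0362) fell. Gnai2, the subunit with the highest median level on its list, was at 11.56 to 11.85 in all arrays and passed in none of these comparisons. Adcy1 (2.00 ± 0.16, adjusted p = 0.00286) and Adcy6 (0.60 ± 0.08, adjusted p = 0.0101) were higher in CD34 positive than in Mts24 positive cells, a comparison that called 13.9% of all tested genes.

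On the amine side, 7 of 9 monoamine transporter genes had a probe set, and besides Slc6a2 only Slc6a4, the serotonin transporter, was tested. Slc6a4 fell by 1.86 ± 0.17 in CD34 positive cells (limma adjusted p = 0.00133) and did not pass in Mts24 positive cells (0.29, adjusted p = 0.272). The difference between the sorts passed for it (-2.15 ± 0.24, adjusted p = 0.0132), where 4.08% of all tested genes did. That call held without each of 4 arrays and was lost without each of the other 4, with the highest adjusted p, 0.0723, without the wild type CD34 negative array. For genotype it did not pass (-0.28, adjusted p = 0.160). The dopamine transporter gene Slc6a3, the vesicular transporter genes Slc18a1 and Slc18a2, and Slc22a2 and Slc29a4 were under 7.70 in all arrays, with highest levels of 7.12, 6.08, 6.07, 6.77 and 6.76.

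Of 11 genes for catecholamine synthesis and breakdown 10 had a probe set and 5 were tested. In CD34 positive cells 1 rose and 2 fell, where 23.7% of all tested genes were called. In Mts24 positive cells 1 rose and 1 fell, where 22.8% were called. The synthesis genes Th, Ddc, Dbh and Pnmt were under 7.70 in all arrays. Maob and Maoa, the monoamine oxidases, fell in CD34 positive cells by 2.52 ± 0.25 (limma adjusted p = 0.00192) and 0.58 ± 0.15 (adjusted p = 0.0387). In Mts24 positive cells Maob fell by 1.06 ± 0.25 (adjusted p = 0.0342). Maob was also lower in CD34 positive than in Mts24 positive cells (-1.75 ± 0.23, adjusted p = 0.00944). Among genes that make or recycle the biopterin cofactor of amine synthesis, Qdpr rose in CD34 positive cells (0.56 ± 0.15, adjusted p = 0.0431), where it was also higher than in Mts24 positive cells (0.63 ± 0.14, adjusted p = 0.0344), and Pts rose in Mts24 positive cells (0.57 ± 0.15, adjusted p = 0.0436). For genotype 0 of the 5 tested genes passed with limma, where 2.05% of all tested genes did. Of 9 adrenergic receptor genes 2, Adra1b and Adra2c, were on probe sets with a single symbol. Both were under 7.70 in all arrays, and the others are not analysed here.

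The wider SLC6 family, sodium-coupled carriers of amines and amino acids, had 19 of 20 genes on the arrays and 8 tested, Slc6a2 included. In CD34 positive cells 5 fell, 1 rose and 2 did not pass (median -1.17, against -0.03 over all tested genes, of which 11.6% fell and 23.7% were called). Besides Slc6a2 and Slc6a4 these were the amino acid carriers Slc6a19 (-1.72 ± 0.46, limma adjusted p = 0.0468), Slc6a20a (-1.59 ± 0.28, adjusted p = 0.0111) and the glycine carrier Slc6a9 (-0.69 ± 0.19, adjusted p = 0.0467), while the taurine carrier Slc6a6 rose (1.00 ± 0.26, adjusted p = 0.0415). In Mts24 positive cells 3 fell and 0 rose (median -0.54, against 0.02 over all tested genes, of which 11.7% fell): Slc6a19 (-2.86 ± 0.46, adjusted p = 0.0118), Slc6a20a (-1.64 ± 0.28, adjusted p = 0.0132) and Slc6a9 (-0.80 ± 0.19, adjusted p = 0.0320). Slc6a6 was also higher in CD34 positive than in Mts24 positive cells (1.41 ± 0.24, adjusted p = 0.0185), and Slc6a4 lower (-1.53 ± 0.16, adjusted p = 0.00477). The 7 tested members other than Slc6a2 had a genotype median of -0.23, and 0 passed with limma, where 2.05% of all tested genes did.

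**Figure D4:**
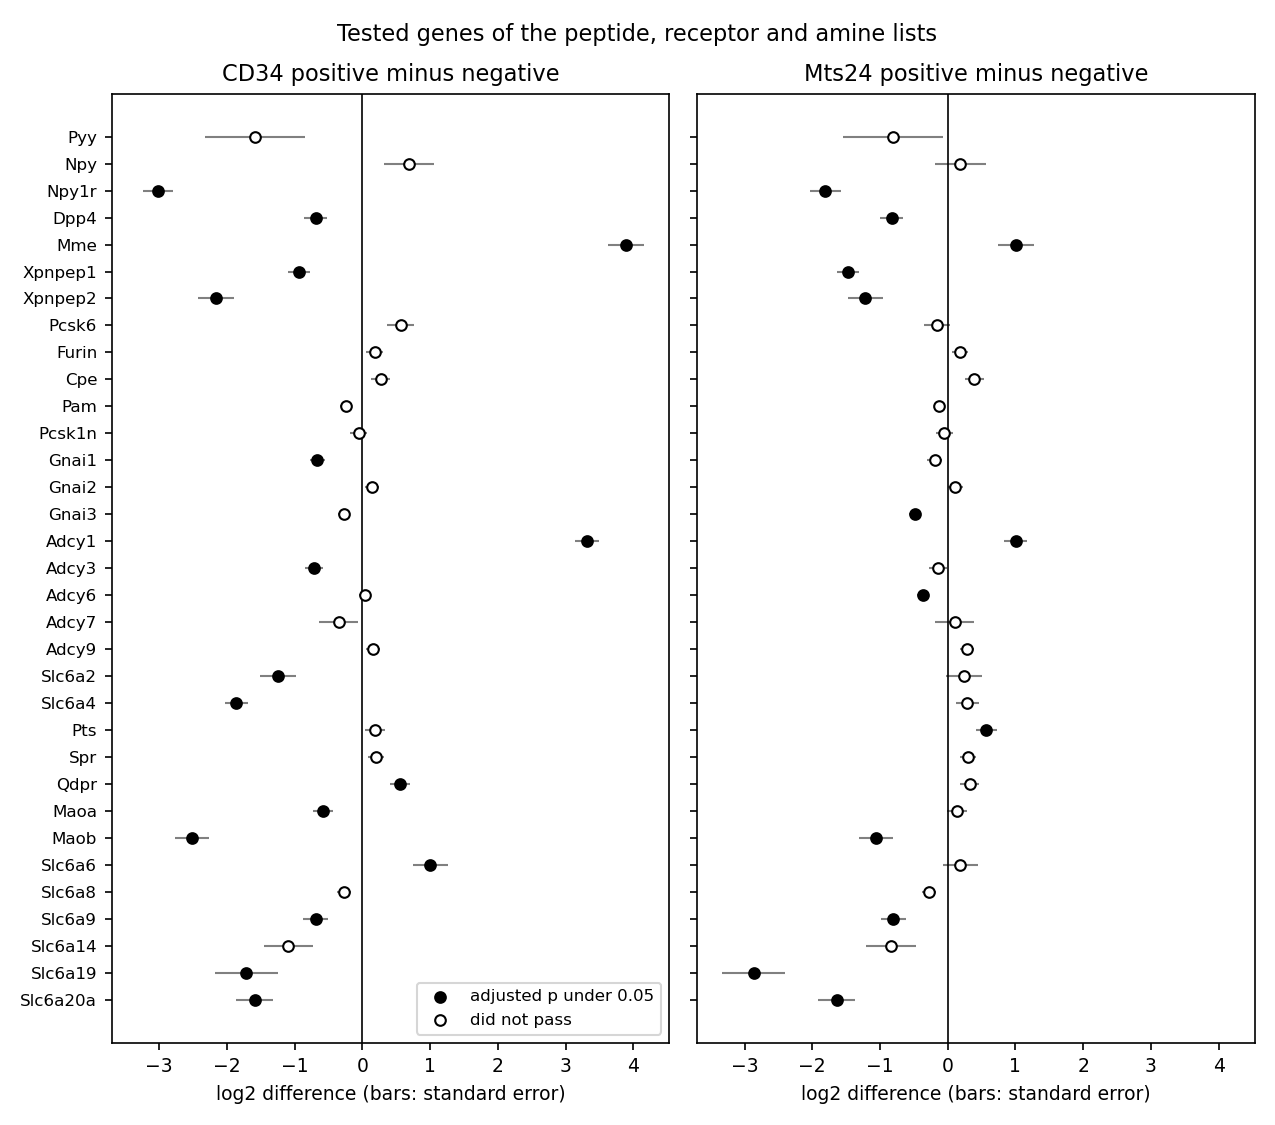
Positive minus negative log2 differences (x axis, limma estimate with standard error) of the 33 tested genes on the peptide, receptor, peptidase, signalling and amine lists, in the CD34 and Mts24 sorts; filled points passed at an adjusted p under 0.05. Mme (3.90) and Adcy1 (3.32) stand highest and Npy1r (-3.02) lowest in the CD34 sort, and Slc6a19 (-2.86) is lowest in the Mts24 sort.

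These calls rest on few arrays. Of the 15 calls on list genes other than the 3 members in the CD34 sort, 5 held without each of the 8 arrays in turn (Mme, Xpnpep2, Adcy1, Slc6a4 and Maob). Of these, Mme had passed the filter only through the CD34 positive arrays. The other 10 were lost, with their highest adjusted p (0.0749 to 0.216) without 1 of the CD34 negative arrays. Of 12 calls in the Mts24 sort 1 held (Xpnpep1), and the other 11 reached 0.0742 to 0.194 without 1 of the Mts24 negative arrays or, for Mme, the wild type Mts24 positive array. With the pool as a fixed block, which pairs the fractions, 4 of the 15 CD34 calls were lost (Maoa at 0.0542, Slc6a19 at 0.0629, Slc6a6 at 0.0757 and Slc6a9 at 0.0783), as were 4 of the 12 Mts24 calls (Xpnpep2 at 0.0501, Slc6a9 at 0.0581, Pts at 0.0656 and Mme at 0.0758). Over all settings that kept the 8 arrays, 9 of 15 and 7 of 12 calls held. Of 7 calls between the positive fractions 3 held (Adcy1, Slc6a4 and Maob), and the other 4 reached 0.0524 to 0.121.

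The genes whose levels were most like each of the 3 were ranked by Pearson correlation over the 8 arrays. These arrays share pools, genotypes and fractions, so the values are a description. For Pyy the nearest of 10719 genes were Slurp2 (r = 0.976), Rps4l (0.956), Tmem120a (0.951), Rpl14-ps1 (0.932) and Klk13 (0.927). Slurp2 spanned 7.65 to 9.82, a far narrower range than Pyy, and Rps4l, Tmem120a and Rpl14-ps1 each varied by less than 0.5. For Npy1r they were the kinase gene Wnk2 (r = 0.990), the cadherin gene Cdh4 (0.977), Tppp (0.977), the laminin gene Lama1 (0.974) and Tprn (0.974). Wnk2 spanned 7.64 to 10.25. For Slc6a2 they were Prickle1 (r = 0.961), Mesp2 (0.960), Pkia (0.937), Nol7 (0.922) and 1600014C10Rik (0.920). Npy1r had 246 genes at r of at least 0.9, against 17 for Pyy and 9 for Slc6a2, so its pattern over the fractions was the commonest of the 3.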

How the data were processed

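Expression was measured on 8 arrays, 1 per genotype, marker and fraction. The authors deposited log2 levels of each probe set after RMA, a step named in the submitters' processing notes. Its version and the genome build were not given in the sources used here. GEO's platform annotation gave 21789 of 28874 probe sets 1 symbol, and the probe set with the highest mean stood for each of 19938 genes. limma 3.58.1 (R 4.3.3, statmod 1.5.0) fitted 4 fractions plus genotype to the 10720 tested genes, with a random block for each pool, the cells of 1 genotype and 1 antibody (correlation -0.175, 3 residual and 2.78 prior degrees of freedom) and Benjamini-Hochberg adjustment at 0.05. That positive and negative fractions share mice is taken from their pool sizes. The labels number no replicates. Intervals use the moderated t distribution, and summed marker levels are log2 of summed linear values. Promoter windows came from RefSeq tables (2 of the 3 genes matched), and chromosome neighbours from RefSeq order. The fit was tested on simulated data. Tables and plots used Python 3.11.15, pandas 2.3.3, numpy 2.4.6, scipy 1.17.1 and matplotlib 3.10.9.

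The members and gene lists were chosen with earlier results of these data known. Named genes are the 3 members, the 5 most correlated genes of each, and list genes that passed a comparison, with the highest gene of a list, the rest of the neuropeptide Y family and the monoamine transporters. For arrays their number limits the precision.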

Additional observations from a re-analysis of the deposited data

Results flagged for a closer look

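Between single arrays Pyy differed by 1 or more in some groups and by next to nothing, with the opposite sign, in others. The genotype differences chose the gene, so nothing is read from them. The difference between the groups was not tested. Positive minus negative in the Mts24 sort, it was at 0.057 in wild type and -1.68 in K14Snail. K14Snail minus wild type, it was at 3.10 in Mts24 negative, 1.37 in Mts24 positive and 1.22 in CD34 negative cells but at -0.048 in CD34 positive cells.

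The CD34 and Mts24 differences of 3 list genes differed from each other by limma's test of that difference. The gap was 2.89 for the peptidase gene Mme (adjusted p = 0.0186), 2.31 for the cyclase gene Adcy1 (adjusted p = 0.0116) and -2.15 for the serotonin transporter gene Slc6a4 (adjusted p = 0.0132). None of the 3 calls held without each array in turn, with adjusted p up to 0.0830 for Mme (without the K14Snail CD34 negative array), 0.0617 for Adcy1 (without the K14Snail Mts24 negative array) and 0.0723 for Slc6a4 (without the wild type CD34 negative array). The Mme call was also lost with the pool as a fixed block (adjusted p = 0.0565), and Mme passed the filter only through the CD34 positive arrays.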

How the results depend on the processing

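The count of genes called by limma moved most when 1 array was left out. It ranged from 1154 to 2280 for CD34 positive minus negative (2542 with all arrays), 661 to 2897 for Mts24 (2448), 14 to 830 for the difference between the sorts (437), 382 to 1257 between the positive fractions (1494), 0 to 36 between the negative fractions (7) and 5 to 75 for genotype (220). With the pool as a fixed block, which pairs positive and negative cells, the difference between the sorts gave 232. Between the negative fractions the count was 2 after quantile normalization, 4 with arrays centred on their medians, 14 when 4 arrays had to reach 7.70 and 20 with a variance trend. For genotype it was 41 with no pool block, where the peptidase and prohormone processing lists had 0 calls. The causes were not tested.

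With 1 array left out, the Pyy CD34 difference ranged from -2.64 to -0.52 and the Npy1r difference between positive fractions from -1.04 to -0.62. For Slc6a2 the range was -1.60 to -0.89 for CD34, -1.84 to -1.13 for the difference between the sorts and -1.19 to -0.48 between positive fractions. The sign of every called Npy1r and Slc6a2 difference was the same in each alternative run. The Pyy values for Mts24 (-2.01 to 0.38), the difference between the sorts (-1.96 to 0.43) and the negative fractions (-1.95 to 0.44) changed sign when 1 array was left out, and none of these was called with all arrays. With 7 arrays the pool correlation could not be estimated, so that of 8 arrays was used. Slc6a2 has no value when 4 arrays had to reach 7.70. Levels near background limit Npy1r and Slc6a2 most.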
